A study of Mus musculus with 8 samples.

Results

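The genes described here encode the proteins of the cytosolic ribosome and their paralogs. They were taken from the expression table by symbol: every Rpl or Rps symbol made of a number and at most a short suffix, the stalk genes Rplp0, Rplp1 and Rplp2, and Rpsa. Kinases of the Rps6k family and rows with a pseudogene symbol were left out; Rps4y2, which the rule takes in, is a transcribed pseudogene in RefSeq. The rule found 84 genes among 20029 in the table. Of these, 43 encode proteins of the large subunit, 31 of the small subunit, 3 of the stalk, and 7 are paralogs outside the core set of ribosomal proteins (Rpl22l1, Rpl3l, Rpl7l1, Rpl10l, Rpl39l, Rps27l and Rps4y2). A total of 82 reached at least 1 TPM in at least 4 libraries and are called measured; Rpl3l and Rpl10l did not. The rule did not use expression values.

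RNA was sequenced from CD8+ T cells that had infiltrated subcutaneous MC38-OVA tumours, which grow from a mouse colon carcinoma line carrying the model antigen ovalbumin. The libraries came from Pglyrp1 knockout mice (KO, allele B6.129S4-Pglyrp1tm1.1Lky/J, n = 4, replicates 1 to 4) and from C57BL/6J wild-type mice (WT, n = 4, replicates 6 to 9). The allele is a germline knockout, so the loss is not restricted to T cells. Each library was made from 1000 sorted living cells that carried CD45, TCRβ and CD8, by a modified SMART-Seq2 protocol for full-length cDNA, and read in pairs of 38 bases. Pglyrp1 encodes a secreted peptidoglycan-binding protein, and the question put to the data is whether its loss alters mRNAs of the translation machinery in tumour CD8+ T cells. The design text gives the mouse as the unit of replication, 1 per library, and the spread behind each p-value is that between mice.

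The cytosolic ribosome joins a small subunit, which reads the mRNA, to a large subunit, which forms the peptide bond and carries the flexible acidic stalk that recruits translation factors. Ribosomal protein mRNAs belong to the TOP class: they begin with a C followed by a run of pyrimidines, which LARP1 binds when mTORC1 is inactive, and their translation and stability then follow mTORC1 as a group. Naive T cells hold translation low and raise ribosome production when activated, and ribosomal protein mRNAs are among the most abundant in lymphocytes.

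The start of the mRNA carries this shared feature, so 30 bases around a RefSeq start site are shown for 8 genes (build GRCm38.p6, 10 bases before to 20 from the start on, 5′ to 3′). Capitals mark a C followed by pyrimidines, a run of at least 7 bases in all, and the run of Rpl7a begins before its window. Rps19 has 3 annotated starts, and the start with the longest such run is shown. The 8 genes cover stalk, large-subunit and small-subunit genes, a paralog, the most abundant member, and the gene whose library values spread most among the core set.
Rps27 (chr3:90213629-90213658, minus strand): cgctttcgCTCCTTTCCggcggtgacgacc
Rplp2 (chr7:141447641-141447670, plus strand): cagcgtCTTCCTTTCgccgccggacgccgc
Rps9 (chr7:3704031-3704060, plus strand): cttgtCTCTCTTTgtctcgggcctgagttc
Rps19 (chr7:24884903-24884932, plus strand): agcggggtgtggagggCTCTCCCacgcggt
Rpl28 (chr7:4792955-4792984, plus strand): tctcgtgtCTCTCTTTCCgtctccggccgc
Rpl7a (chr2:26910797-26910826, plus strand): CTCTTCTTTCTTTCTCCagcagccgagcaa
Rpl22l1 (chr3:28805498-28805527, plus strand): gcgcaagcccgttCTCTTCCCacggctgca
Rpl41 (chr10:128549149-128549178, minus strand): gggccggctcggaagtgacgacaccgagca
Promoter windows were found for 63 of the 84 genes. Such a run, read on the gene's strand, began within 30 bases of an annotated start, on either side, in 43 of 63 (68.3%), against 30.8% of all 27025 promoters and 31.1% of 7960 tested genes that are not ribosomal protein genes. The windows of Rpl41, Rplp0, Rpl12 and Rpsa held none. The letters CCGGAAG, the core of the ETS and GABP motif, were found on either strand of the 300-base window in 41.3% of the genes, against 9.93% of all promoters and 22.3% of the other tested genes. On the opposite strand this motif reads CTTCCGG, whose first letters can overlap the end of a pyrimidine run. A match describes the window only.

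The labels were checked first. No KO library had a value above 0 for Pglyrp1, whereas WT 6 to 9 had 123, 210, 208 and 153 TPM (limma adjusted p = 2.93e-07). The 7 defining T cell markers (Cd3e, Cd3d, Cd3g, Cd8a, Cd8b1, Cd247 and Lck) were present in every library, with sums of 5229 to 5884 TPM in KO and 5403 to 7277 TPM in WT libraries. KO 3 and KO 4 stood apart by 16 myeloid markers such as Lyz2, Cd74 and Tyrobp, which summed to 10022 and 13392 TPM there, against 790 and 601 TPM in KO 1 and KO 2 and 406 to 1378 TPM in WT libraries. All 16 were above 0 in KO 3 and KO 4, while Lyz2 was at 0 in WT 6, and Csf1r was at 0 in WT 6 and WT 8. WT 6 and WT 9 stood apart by 10 naive and memory markers such as Ccr7 and Tcf7. The ribosomal protein results are therefore given with and without these pairs of libraries. Across all genes 3 of 10732 passed the limma threshold (0.0280%).

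Ribosomal protein mRNA made up 29.7%, 28.0%, 22.1% and 20.3% of the total in KO 1 to 4, against 36.7%, 22.9%, 22.6% and 36.3% in WT 6 to 9. The KO libraries averaged 25.0% ± 4.55 and the WT libraries 29.6% ± 7.94 (SD, n = 4 each), and the difference of -4.63 points was smaller than the WT spread. The groups overlapped: WT 6 and WT 9 were highest, KO 1 and KO 2 came next, and WT 7, WT 8, KO 3 and KO 4 were lowest. The highest library, WT 6, was 1.81 times the lowest, KO 4. In bulk RNA, a change in the kinds of cells present and a change in the RNA of each cell cannot be told apart.

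**Figure D1:**
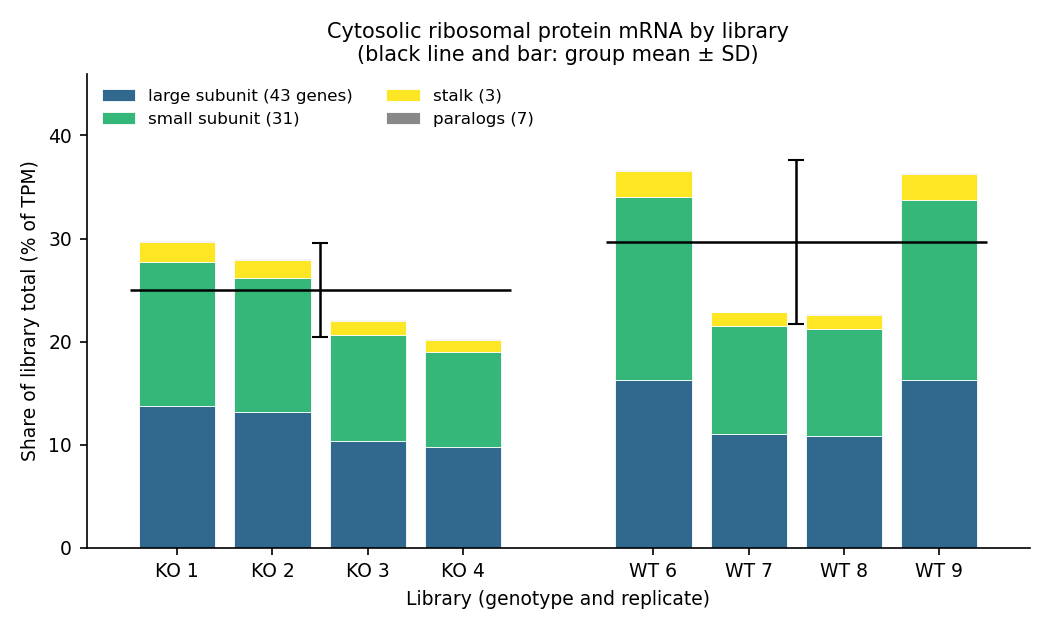
Share of each library's total (% of TPM) taken by ribosomal protein genes, stacked by role, with KO 1 to 4 on the left and WT 6 to 9 on the right; black lines and bars are the group mean ± SD. WT 6 (36.7%) and WT 9 (36.3%) stand above all others, and WT 7 (22.9%) and WT 8 (22.6%) lie beside KO 3 (22.1%) and KO 4 (20.3%).

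Both subunits had WT 6 and WT 9 highest and KO 1 and KO 2 next. The large subunit took 13.7%, 13.2%, 10.4% and 9.76% of the total in KO 1 to 4, against 16.3%, 11.1%, 10.9% and 16.3% in WT 6 to 9. The small subunit took 14.0%, 12.9%, 10.3% and 9.26% in KO libraries, against 17.8%, 10.4%, 10.4% and 17.5% in WT libraries. The balance of the subunits moved little: the ratio of small-subunit to large-subunit TPM was 1.02, 0.980, 0.987 and 0.949 in KO libraries, against 1.09, 0.938, 0.955 and 1.07 in WT libraries, and it was highest in WT 6 and WT 9. The 7 paralogs together took 0.0981% ± 0.00983 in KO and 0.0922% ± 0.0170 in WT libraries (SD, n = 4 each).

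Gene by gene, none of the 82 measured ribosomal protein genes passed the threshold of 0.05 on the adjusted p (smallest limma adjusted p = 0.511). Their log2 fold changes, KO over WT on the log2(TPM + 1) scale, were negative in 75 genes and positive in 7, where 44.8% of all tested genes were negative. The median was -0.21, against 0.04 over all genes tested, and leaving out single libraries moved it between -0.31 (without WT 8) and -0.09 (without WT 6). It was -0.20 over the large subunit (39 of 43 negative), -0.23 over the small subunit (31 of 31 negative) and -0.24 over the stalk (3 of 3 negative). Most lay close together, with 71 of 77 core genes between -0.35 and 0 and a median standard error of 0.23. An unadjusted p under 0.05 was reached by 1 gene, Rpl34, with KO above WT, where 9.08% of all genes tested reached it, 6.01% with KO above WT and 3.07% with KO below WT. That 1 gene was also the only member whose KO and WT values did not overlap, against 2.62% of all genes with KO above WT and 2.40% with KO below WT.

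The direction of these fold changes depended on which libraries were compared. Without KO 3 and KO 4 the median turned to 0.02, 28 of 82 genes were negative, against 52.8% of all genes, and no member had an unadjusted p under 0.05 by limma, against 4.03% of all genes. Without WT 6 and WT 9 the median was 0.13, and 9 of 82 were negative, against 56.2% of all genes. There no member had an unadjusted p under 0.05 with KO above WT, against 3.69% of all genes, and Rps2 had one with KO below WT, against 5.96%. Without both pairs, which left 2 libraries in each group, the median was 0.34, against -0.12 over all genes, and 2 of 81 measured genes were negative, against 64.1% of all genes. There 58 genes had an unadjusted p under 0.05 with KO above WT, against 3.14% of all 9464 genes tested, and Rps2 alone had one with KO below WT, against 9.97%. None passed the adjusted threshold there either (smallest limma adjusted p = 0.0923, for Rpl22l1). The pairs left out were the WT libraries of highest and the KO libraries of lowest ribosomal protein share, so a shift toward higher values in KO follows from leaving them out, and these values only describe the libraries that remain.

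**Figure D2:**
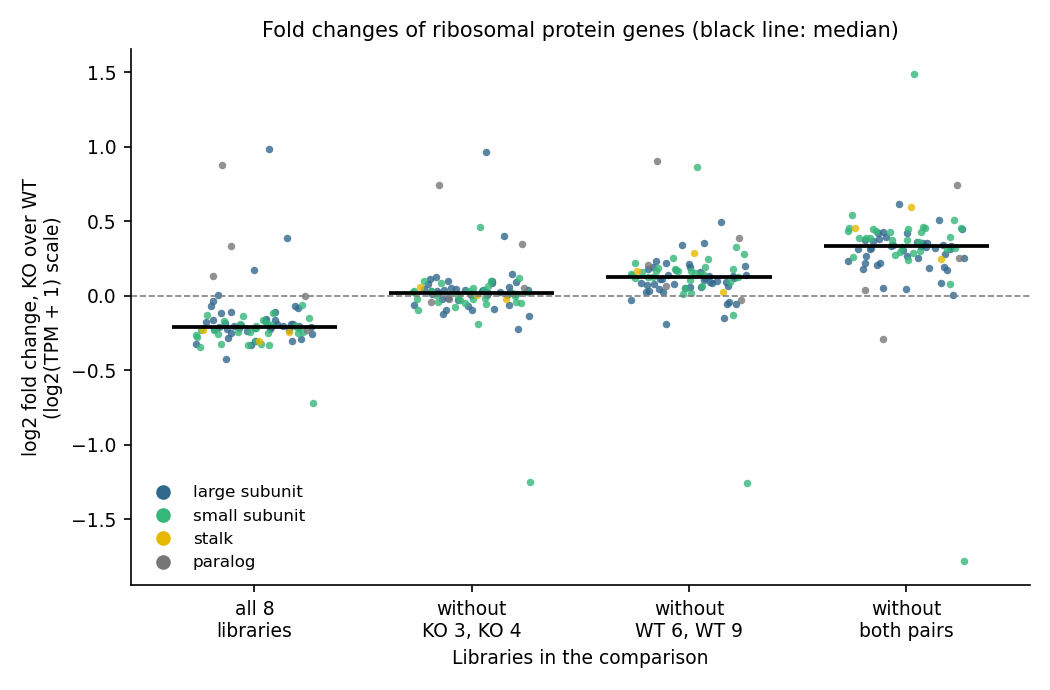
Log2 fold change, KO over WT, of each measured ribosomal protein gene (points, coloured by role) with all 8 libraries and with pairs of libraries left out; black lines are medians. The median is -0.21 with all libraries, 0.02 without KO 3 and KO 4, 0.13 without WT 6 and WT 9, and 0.34 without both pairs.

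Within the libraries the genes moved as a block. WT 6 and WT 9 were the highest libraries for 70 of 82 measured genes, against 7.43% of all genes tested. The order WT 6 and WT 9 highest, then KO 1 and KO 2, held in 67 of 82, against 1.64% of all genes. Both patterns were taken from the summed share that these genes make up. A higher rate than among all genes is therefore partly given by construction. The core genes outside the first pattern were Rpl24, Rpl26, Rpl27, Rpl30, Rpl34, Rpl7a and Rps2. When each gene was expressed as its share of the summed ribosomal protein value, 57 of 77 core genes had a coefficient of variation under 10% over the 8 libraries; its median was 6.68%, against 23.3% for the same genes in TPM. The steadiest shares were those of Rpl9, a large-subunit protein, at 1.64% of the family with a coefficient of variation of 2.44%, and of Rps6, the small-subunit protein that S6 kinases phosphorylate below mTORC1, at 0.940% with 2.51%.

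**Figure D3:**
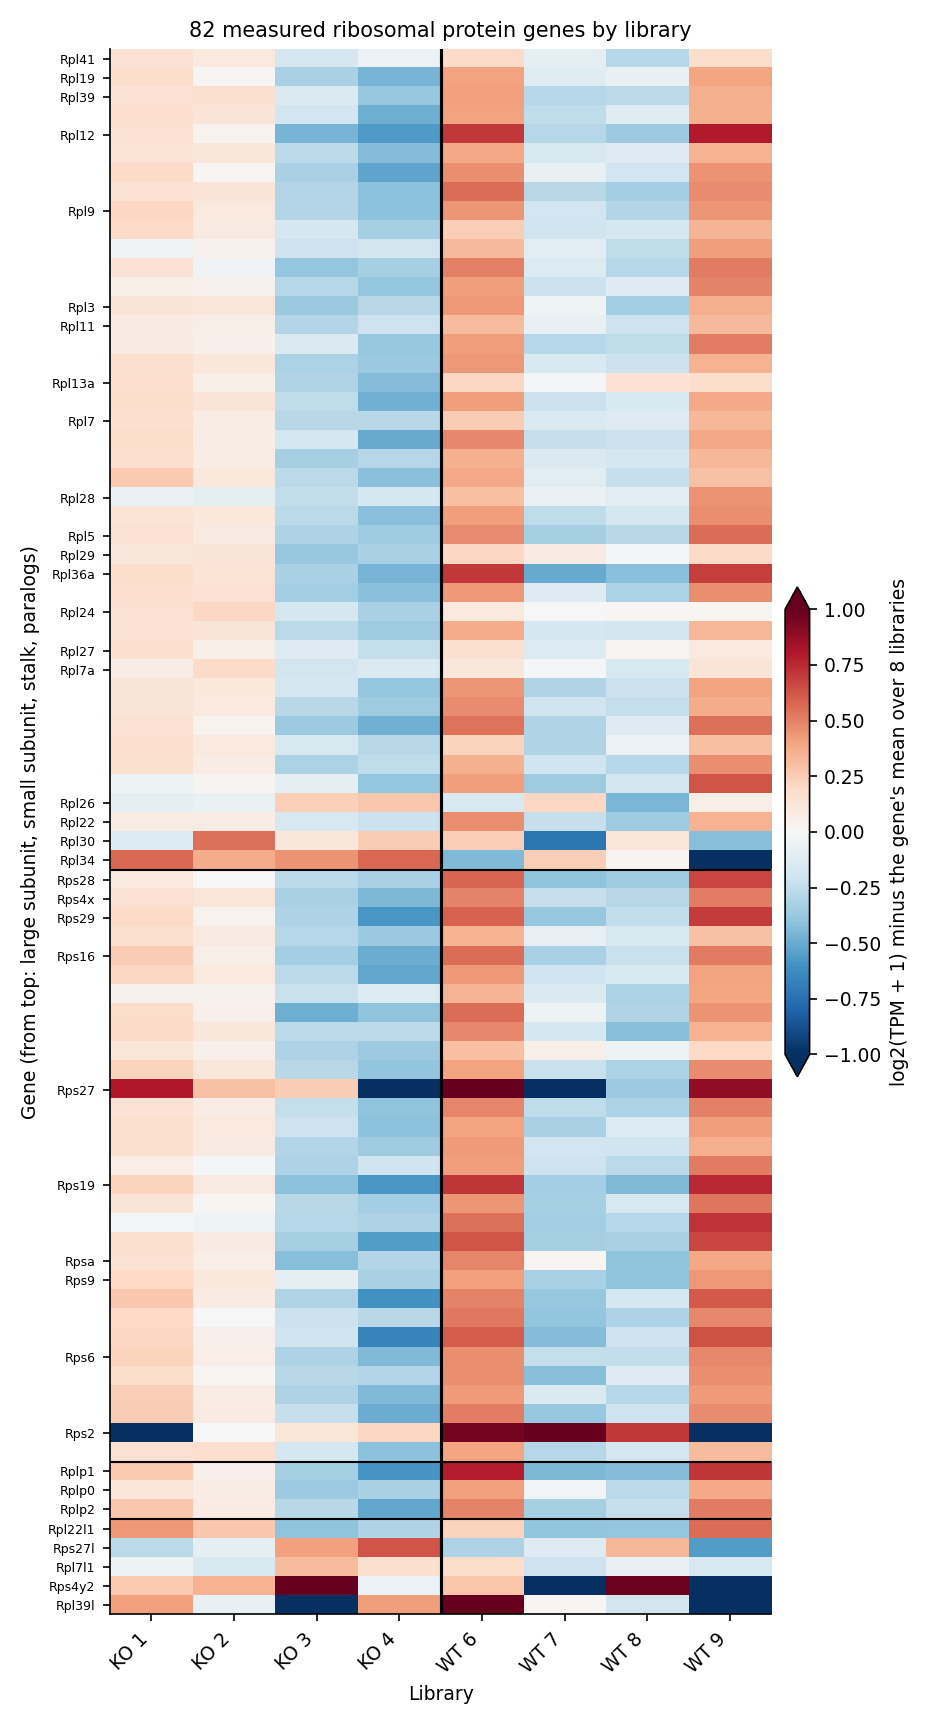
Each row is a measured ribosomal protein gene (genes given in the text are named) and each column a library, KO 1 to 4 left of the line and WT 6 to 9 right of it; colour is log2(TPM + 1) minus the gene's mean over the 8 libraries. WT 6 and WT 9 are red in most rows and KO 3 and KO 4 blue, with Rpl34, Rpl30, Rpl26, Rps2 and Rps27l as rows that differ.

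With every library scaled to the same summed ribosomal protein value, fold changes were spread around 0: 48 genes were positive and 34 negative, where 23.0% of all genes were negative, 72 lay within 0.2 of 0, and the median was 0.01, against 0.24 over all genes. Again no gene passed the threshold (smallest limma adjusted p = 0.902). In that scaling Rpl34 was the gene with an unadjusted p under 0.05 and KO above WT, against 4.75% of all genes, and no gene had one with KO below WT, against 0.438%. Among the genes of smallest p with a lower share of the family in KO were Rpl12 (-0.20), which sits at the base of the stalk, and the zinc-binding Rps29 (-0.11), neither with an unadjusted p under 0.05 by limma.

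Levels of the core genes spanned a wide range, from a mean of 34.8 TPM (Rpl34) to 8786 TPM (Rpl41), with a median of 3512 TPM and 70 of 77 above 1000 TPM. Rpl41, a very short basic peptide at the bridge between the subunits, was the top ribosomal protein gene in 6 libraries. It had 9657, 9331, 7774 and 8361 TPM in KO 1 to 4, against 9985, 8168, 7148 and 9863 TPM in WT 6 to 9. The groups overlapped and the log2 fold change was 0.01 (SE 0.18, limma adjusted p = 0.996). Rpl19, a large-subunit protein that also reaches toward the small subunit, had 6878, 6132, 4854 and 4398 TPM in KO libraries, against 8060, 5603, 5774 and 8016 TPM in WT libraries (log2 fold change -0.30, SE 0.21, limma adjusted p = 0.688).

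In the large subunit Rpl28, Rpl13a, Rpl19 and Rpl29 were among the genes of smallest p with negative fold changes. Rpl28 had 2422, 2383, 2144 and 2248 TPM in KO 1 to 4, against 3128, 2418, 2359 and 3467 TPM in WT 6 to 9. KO values were tight, and they overlapped the WT values only where KO 1 and KO 2 met WT 7 and WT 8 (log2 fold change -0.29, SE 0.16, limma adjusted p = 0.632). Rpl13a, which in human monocytes can leave the ribosome to silence inflammatory mRNAs, had 3591, 3329, 2592 and 2368 TPM in KO libraries, against 3684, 3146, 3539 and 3604 TPM in WT libraries. Its WT libraries were alike, so that WT 6 and WT 9 were highest only by a small margin, and KO 3 and KO 4 were lowest (log2 fold change -0.25, SE 0.17, limma adjusted p = 0.681). Rpl29 showed the same form, with 2473, 2493, 1756 and 1826 TPM in KO libraries, against 2637, 2418, 2267 and 2603 TPM in WT libraries (-0.23, SE 0.17, limma adjusted p = 0.690). Without both pairs of libraries the fold changes were 0.01 for Rpl28, 0.05 for Rpl13a and 0.09 for Rpl29.

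Rpl12 had the most negative fold change of the large subunit (-0.42, SE 0.32, limma adjusted p = 0.700). It had 5448, 5022, 3561 and 3307 TPM in KO libraries, against 8022, 4017, 3809 and 8516 TPM in WT libraries, so WT 6 and WT 9 stood alone and WT 7 and WT 8 lay within the KO range. Rpl3, near the peptidyl transferase centre, averaged 3331 ± 599 TPM in KO and 3874 ± 945 TPM in WT libraries (-0.20, limma adjusted p = 0.808). Rpl39, which lines the exit tunnel, averaged 5598 ± 966 TPM in KO and 6130 ± 1596 TPM in WT libraries (-0.11, limma adjusted p = 0.914). Rpl5 and Rpl11, which with the 5S RNA can bind Mdm2 and so release p53, averaged 2126 ± 386 and 3278 ± 428 TPM in KO libraries, against 2539 ± 817 and 3747 ± 696 TPM in WT libraries, with limma adjusted p of 0.819 and 0.787.

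In the small subunit all 31 fold changes were negative, none with an unadjusted p under 0.05. Rps28 averaged 6344 ± 891 TPM in KO and 7912 ± 3061 TPM in WT libraries (-0.24, limma adjusted p = 0.822). The X-linked Rps4x averaged 5984 ± 1247 TPM in KO and 7258 ± 2155 TPM in WT libraries (-0.25, limma adjusted p = 0.788). Rpsa, also known as the laminin receptor precursor, averaged 3268 ± 618 TPM in KO and 3937 ± 1031 TPM in WT libraries (-0.25, limma adjusted p = 0.771).

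Rps2, at the mRNA entry site, departed from the family and was picked out after its values were seen. It had 327, 1116, 1215 and 1293 TPM in KO 1 to 4, against 2174, 2358, 1829 and 452 TPM in WT 6 to 9. KO 1 and WT 9, which were high for most ribosomal protein genes, were the lowest for Rps2, and the groups overlapped through WT 9 (log2 fold change -0.72, SE 0.59, limma adjusted p = 0.735). Of its 38-base windows 20.3% also occur in other genes of the table, so a read there cannot be assigned to it alone without its mate. Gm10653 held nearly all of these (20.1% of the windows), with a mean of 0.748 TPM beside 1346 TPM for Rps2, and does not count as a near copy. Eif3f, an initiation factor subunit in the list of other TOP mRNAs, had the same pair of low libraries: 64.8, 324, 331 and 403 TPM in KO libraries, against 480, 854, 621 and 113 TPM in WT libraries. Erythroid transcripts, with 2103 TPM in KO 1, 1488 TPM in KO 4 and 838 TPM in WT 9 against at most 57.6 TPM elsewhere, were high in both of those libraries and in KO 4; their part in the result was not tested.

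The stalk proteins Rplp1 and Rplp2 form dimers that bind Rplp0 and reach out to the elongation factors. Rplp1 had 8796, 7631, 5841 and 4890 TPM in KO 1 to 4, against 12653, 5382, 5437 and 12052 TPM in WT 6 to 9, and was the top ribosomal protein gene in WT 6 and WT 9. WT 7 and WT 8 lay between the lowest KO libraries, and the log2 fold change was -0.30 (SE 0.34, limma adjusted p = 0.817). Rplp2 averaged 3993 ± 961 TPM in KO and 4742 ± 1461 TPM in WT libraries (-0.23, limma adjusted p = 0.823), and Rplp0 averaged 4619 ± 812 TPM in KO and 5510 ± 1205 TPM in WT libraries (-0.24, limma adjusted p = 0.750). Stalk mRNA was 6.48%, 6.19%, 5.98% and 5.82% of the family in KO libraries, against 6.87%, 5.95%, 5.81% and 6.75% in WT libraries, highest in WT 6 and WT 9 and next in KO 1 and KO 2.

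The 3 core genes with the lowest values were Rpl22, Rpl30 and Rpl34, and for Rpl30 and Rpl34 a row of another gene holds nearly the same sequence. The aligned part of Rpl34 and the processed copy Rpl34-ps1 (354 bases, of which 352 are identical) is printed here over 60 bases that hold 1 mismatch, marked by a capital. These are transcript bases from the GENCODE annotation of build GRCm38, on chromosome 3 for Rpl34 and chromosome 6 for the copy.
Rpl34: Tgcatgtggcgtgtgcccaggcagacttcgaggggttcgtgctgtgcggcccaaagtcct
Rpl34-ps1: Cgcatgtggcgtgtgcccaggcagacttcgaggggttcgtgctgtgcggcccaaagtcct
In the aligned part, single reads of 38 bases that miss the 2 differing positions cannot be told apart, though the mate of a pair may reach bases that differ. Rpl34 itself had 47.1, 40.8, 43.1 and 47.1 TPM in KO 1 to 4, against 22.8, 37.3, 31.9 and 8.26 TPM in WT 6 to 9, and all KO values lay above all WT values (log2 fold change 0.99, SE 0.39, limma unadjusted p = 0.0309, adjusted p = 0.511). Rpl34-ps1 averaged 4714 ± 776 TPM in KO and 5343 ± 955 TPM in WT libraries, 144 times the mean of Rpl34. The sum of both was 5526, 5272, 4373 and 3864 TPM in KO libraries, against 6157, 4680, 4430 and 6203 TPM in WT libraries, with WT 6 and WT 9 highest and KO 1 and KO 2 next (log2 fold change -0.17, SE 0.19, limma adjusted p = 0.816).

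The same held for Rpl30 and Rpl26. Rpl30 had 81.1, 132, 96.9 and 107 TPM in KO libraries, against 106, 53.5, 97.6 and 66.5 TPM in WT libraries (0.39, SE 0.24, limma adjusted p = 0.645), beside a mean of 4259 TPM for its copy Gm12191. With the copy added the sum averaged 3951 ± 832 TPM in KO and 4753 ± 1330 TPM in WT libraries, and the fold change turned to -0.25 (limma adjusted p = 0.784). Rpl26, which lies near the exit of the tunnel, had 219, 224, 277 and 284 TPM in KO libraries, against 211, 271, 170 and 244 TPM in WT libraries (0.17, SE 0.17, limma adjusted p = 0.787), beside a mean of 4205 TPM for Gm15772. Its sum averaged 4176 ± 768 TPM in KO and 4708 ± 1133 TPM in WT libraries (-0.16, limma adjusted p = 0.848).

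**Figure D4:**
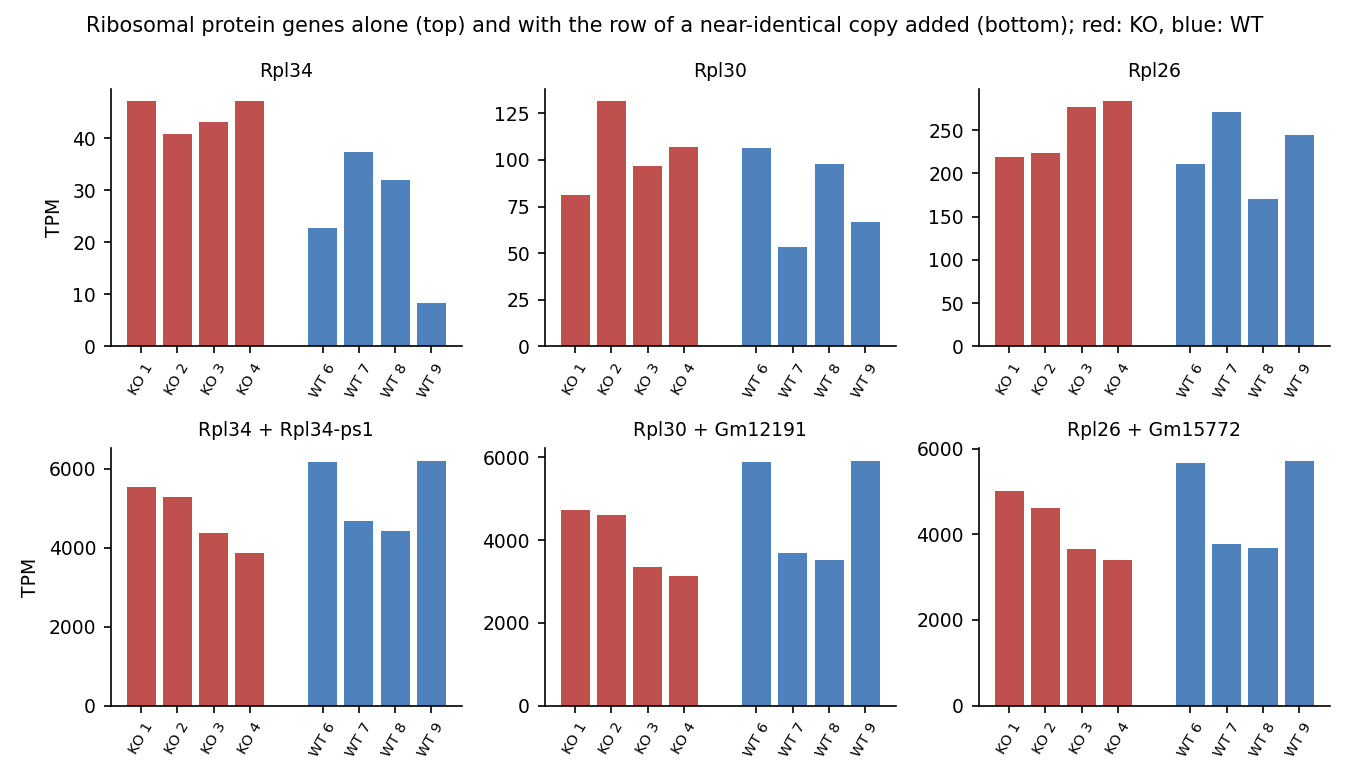
TPM of Rpl34, Rpl30 and Rpl26 by library (top), and of the same genes with the row of their near-identical copy added (bottom); red bars are KO 1 to 4 and blue bars WT 6 to 9. The single rows stay at or under 284 TPM without the family's order of libraries, and the sums reach 3120 to 6203 TPM with WT 6 and WT 9 highest.

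Rps27, a zinc-finger protein of the small subunit, also has a near copy. It had 6655, 4675, 4567 and 1193 TPM in KO 1 to 4, against 9639, 1327, 2964 and 7063 TPM in WT 6 to 9, an 8.08-fold range over libraries and the widest of the core set. Of its 38-base windows 98.7% are also in Gm9846, which had a mean of 8762 TPM. Their sum was 15638, 13280, 9770 and 7611 TPM in KO libraries, against 19790, 10034, 11366 and 20692 TPM in WT libraries (log2 fold change -0.40, SE 0.32, limma adjusted p = 0.731). In all, 9 members had such a near copy in the table, and 45 of 84 shared no 38-base window with another gene of the table. More than 10% of the windows were shared in 22 members, among them Rplp2 (72.4%), Rpl29 (63.9%) and Rpl5 (45.6%). Genes absent from the table were not searched. With the copies added, 77 of 82 measured genes were negative, where 44.8% of all genes were, 5 were positive, and none had an unadjusted p under 0.05, where 9.08% of all genes did (smallest limma adjusted p = 0.629). The share of ribosomal proteins with their copies averaged 27.1% ± 4.97 in KO and 32.3% ± 8.50 in WT libraries (SD, n = 4 each).

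Among the 5 measured paralogs, none had WT 6 and WT 9 as its highest libraries. Rps27l, a target of p53 that is related to Rps27 (169 of 214 aligned bases identical), had 198, 223, 318 and 369 TPM in KO 1 to 4, against 192, 219, 301 and 162 TPM in WT 6 to 9. KO 3, KO 4 and WT 8 were highest and WT 9 lowest, nearly the reverse of the family (log2 fold change 0.33, SE 0.25, limma adjusted p = 0.700). Without KO 3 and KO 4 its fold change was -0.02. Rpl22l1, which Rpl22 represses in mouse, had 833, 745, 466 and 502 TPM in KO libraries, against 721, 469, 473 and 910 TPM in WT libraries, with KO 1, KO 2, WT 6 and WT 9 above the other 4 as in most core genes (0.00, SE 0.27, limma adjusted p = 0.999). Its partner Rpl22, whose loss in mice halts the development of αβ T cells, averaged 157 ± 16.8 TPM in KO and 175 ± 48.9 TPM in WT libraries (-0.12, limma adjusted p = 0.890), so that the paralog had the higher level of the pair in every library.

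Rpl7l1 averaged 57.3 ± 8.72 TPM in KO and 52.1 ± 6.74 TPM in WT libraries (0.13, limma adjusted p = 0.827), beside 2704 ± 435 and 3021 ± 525 TPM for its partner Rpl7. Rps4y2, which RefSeq names Rps4l, averaged 9.31 ± 4.28 TPM in KO and 6.04 ± 5.60 TPM in WT libraries (0.88, SE 0.59, limma adjusted p = 0.676). The germ cell paralog Rpl39l had 2.08, 1.21, 0 and 2.10 TPM in KO libraries, against 7.32, 1.35, 1.04 and 0 TPM in WT libraries. The muscle paralog Rpl3l was above 0 only in KO 3, at 0.897 TPM. Rpl10l, a testis paralog of the X-linked Rpl10, was listed at 0 in all 8 libraries.

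Genes that share the TOP start or the making of ribosomes were followed in lists. Fau encodes a further ribosomal protein as a fusion with a ubiquitin-like protein. It averaged 5247 ± 794 TPM in KO and 5898 ± 429 TPM in WT libraries (-0.18, limma adjusted p = 0.770). Of 18 other TOP mRNAs, which include elongation factors and eIF3 subunits, 13 were negative, 5 positive and none past the adjusted threshold, with a median of -0.13. They summed to 29410, 28865, 23081 and 24359 TPM in KO 1 to 4, against 32025, 27671, 25258 and 31668 TPM in WT 6 to 9. This sum, of which Eef1a1 and Tpt1 were the largest parts, was highest in WT 6 and WT 9. Gene by gene, 9 of the 18 had WT 6 and WT 9 as their highest libraries, against 70 of 82 ribosomal protein genes and 7.43% of all genes. In this list Hnrnpa1, an RNA-binding splicing factor, had all KO values (462 to 643 TPM) above all WT values (330 to 439 TPM; 0.43, SE 0.15, limma adjusted p = 0.473). Eif4b, a cofactor of the eIF4A helicase, had all KO values (165 to 181 TPM) below all WT values (194 to 240 TPM, log2 fold change -0.29, SE 0.12, limma adjusted p = 0.514).

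Of 10 non-coding snoRNA host genes, which also begin with TOP sequences, 8 were negative and 2 positive, with a median of -0.38, which was 0.32 without both pairs of libraries. Snhg5 had 64.1, 71.3, 47.3 and 58.5 TPM in KO libraries, against 87.4, 87.3, 84.0 and 83.8 TPM in WT libraries (-0.51, SE 0.15, limma unadjusted p = 0.00615, adjusted p = 0.395). The 4 WT libraries were nearly equal and all above the KO libraries, a pattern unlike that of the ribosomal proteins. Snhg7 averaged 7.81 ± 2.75 TPM in KO and 14.7 ± 4.95 TPM in WT libraries (-0.83, limma adjusted p = 0.496). Gas5 averaged 93.2 ± 32.0 TPM in KO and 125 ± 45.7 TPM in WT libraries (-0.41, limma adjusted p = 0.715).

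The factors that build ribosomes were followed in 3 lists. The 41 rRNA processing and assembly factors summed to 1884, 1931, 1866 and 2093 TPM in KO libraries, against 2342, 1728, 1777 and 2346 TPM in WT libraries, with a median log2 fold change of -0.04, 24 negative and 17 positive, and with a median of 0.18 without both pairs of libraries. Their members of smallest p were Bysl (-0.38, limma adjusted p = 0.640) and Riok1 (0.32, limma adjusted p = 0.669), both of small-subunit maturation. RNA polymerase I genes had a median of -0.11 over 14 genes (0.06 without both pairs), with Taf1a at -0.50 (limma adjusted p = 0.660) and Twistnb at -0.25 (limma adjusted p = 0.718). All 4 dedicated chaperones of ribosomal proteins were negative (median -0.30, and -0.04 without both pairs), among them Bccip (-0.33, limma adjusted p = 0.561) and Heatr3 (-0.47, limma adjusted p = 0.602). None of the genes in these lists passed the threshold.

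Among 23 initiation factors 13 were positive and 10 negative, with a median of 0.01. Eif2s2, a subunit of eIF2, had 62.7, 55.0, 68.8 and 61.9 TPM in KO libraries, against 45.9, 44.1, 47.9 and 45.6 TPM in WT libraries, without overlap (0.42, SE 0.12, limma adjusted p = 0.412). Eif1ax had all KO values (80.7 to 124 TPM) above all WT values (64.2 to 79.1 TPM; 0.49, limma adjusted p = 0.465). In the mTORC1 list, 12 of 22 measured genes were positive and the median was 0.05 (-0.20 without both pairs); Pdcd4, an inhibitor of eIF4A, averaged 69.4 ± 25.8 TPM in KO and 95.7 ± 18.6 TPM in WT libraries (-0.51, limma adjusted p = 0.587), and Eif4ebp2, which binds eIF4E, 20.1 ± 3.08 TPM in KO and 25.7 ± 4.58 TPM in WT libraries (-0.33, limma adjusted p = 0.624). Of 7 measured p53 targets and regulators, Cdkn1a had 35.3, 26.6, 97.2 and 107 TPM in KO libraries, against 4.06, 41.4, 29.2 and 3.15 TPM in WT libraries (2.16, SE 0.81, limma adjusted p = 0.501), and Bbc3 averaged 2.01 ± 0.516 TPM in KO and 3.46 ± 0.563 TPM in WT libraries (-0.58, limma adjusted p = 0.530). The 76 mitochondrial ribosomal protein genes, which serve the other ribosome of the cell, had a median of 0.11, with 52 positive, against -0.21 in the cytosolic family. Without both pairs these medians were -0.01 and 0.34, and scaled to the other genes or quantile normalized the mitochondrial median was 0.01.

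Marker genes of cell state and of other cells also differed between the libraries. The 10 naive and memory markers summed to 1376, 968, 883 and 407 TPM in KO 1 to 4, against 2348, 594, 662 and 2095 TPM in WT 6 to 9. This sum was highest in the same WT libraries as the ribosomal proteins. The 8 effector markers, among them Gzmb, Prf1 and Lag3, summed to 4159, 5312, 5917 and 5559 TPM in KO libraries, against 708, 2949, 3928 and 1437 TPM in WT libraries. Their sum, of which Gzmb was the largest part, was lowest in WT 6 and WT 9. Gzmb, Ifng, Havcr2, Pdcd1 and Tigit were each lowest in these libraries. Prf1 (272 TPM) and Tnfrsf9 (117 TPM) in WT 9 lay above WT 7 (250 TPM) and WT 8 (94.5 TPM), respectively. Lag3 was higher in WT 9 (154 TPM) than in the other WT libraries. All 8 effector markers had an unadjusted p under 0.05 by limma with KO above WT, against 6.01% of all genes. Their part in the ribosomal protein share was not tested. The myeloid sums were highest in KO 3 and KO 4, and were 406 and 536 TPM in WT 7 and WT 8. KO 3, KO 4, WT 7 and WT 8 were the libraries of lowest ribosomal protein share. All 14 measured myeloid markers had positive fold changes, 7 of them with an unadjusted p under 0.05, against 6.01% of all genes with KO above WT; the part of these cells was not tested either. The 8 B cell markers summed to 50.8 and 53.1 TPM in WT 6 and WT 9, against 6.05 to 20.8 TPM in KO libraries and 8.10 and 10.4 TPM in WT 7 and WT 8. The proliferation markers summed to 470 to 696 TPM in KO libraries, against 352 to 729 TPM in WT libraries. Their sum, though not every marker, was lowest in WT 6 and WT 9.

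**Figure D5:**
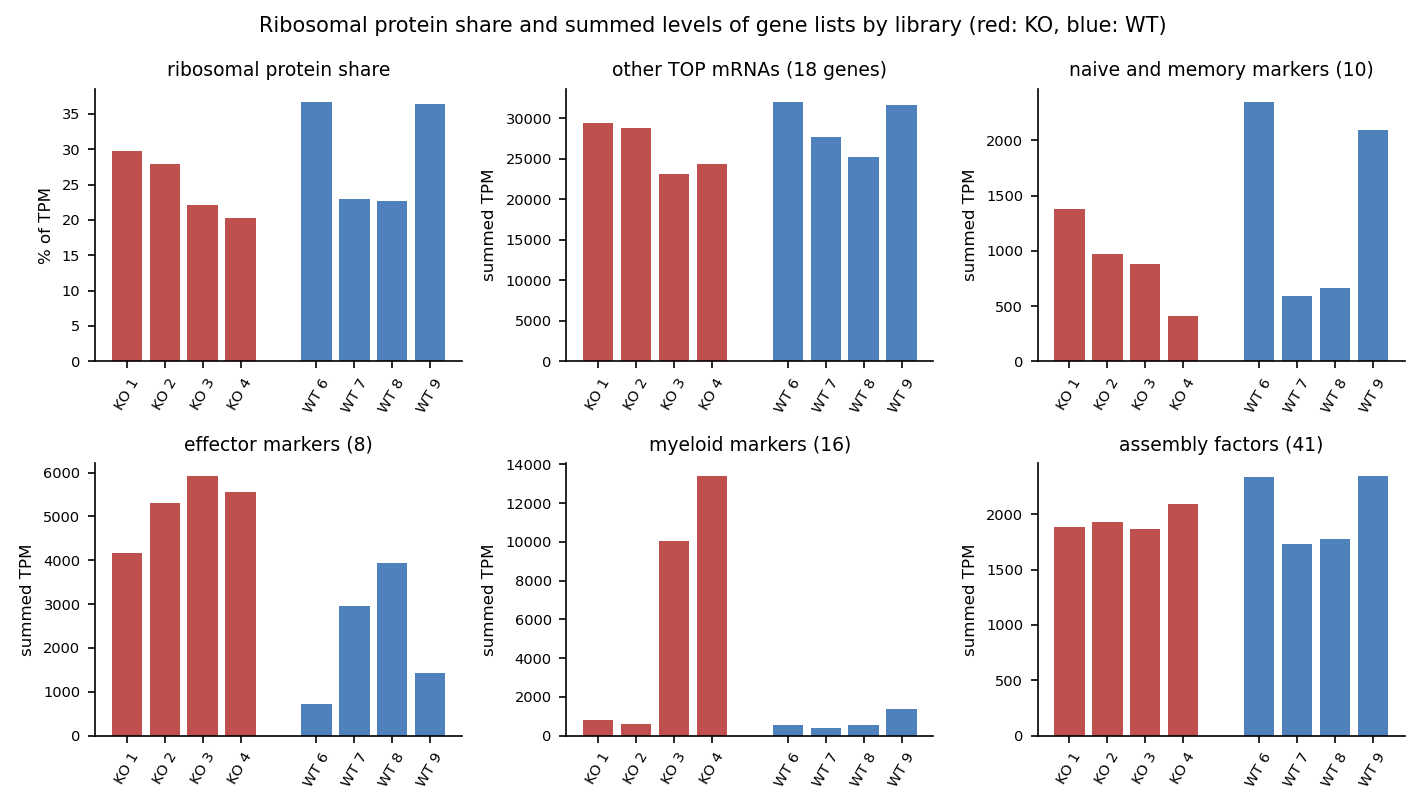
Ribosomal protein share (% of TPM) and summed TPM of 5 gene lists by library, KO 1 to 4 in red on the left and WT 6 to 9 in blue on the right. The sums of the other TOP mRNAs and of the naive and memory markers share the high values of WT 6 and WT 9. The effector sum is lowest there (708 and 1437 TPM), and the myeloid sum is high in KO 3 and KO 4 (10022 and 13392 TPM).

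The ribosomal protein genes lie on 19 chromosomes. Pglyrp1 is on chromosome 7, where 14 of them lie. The strain name B6.129S4 records an allele made in 129S4 cells and moved to B6; which bases flank it in these mice was not tested. Members within 15 Mb of Pglyrp1 included Rps19 (-0.34), Rps16 (-0.26) and Rpl28 (-0.29). These fold changes lay within the range of the family, and the limma adjusted p was 0.632 or more in each.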

How the data were processed

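The authors deposited 1 table of whole-number values, a score that they name a TPM-normalized count and, per the submitters' processing notes, made with RSEM 1.3.3 on mm10. A column sums to between 2223162 and 3342847, so it does not hold TPM, which sum to 1000000. Whether the values are read counts cannot be told from these sums. How the values were scaled and rounded, and with which aligner and annotation, is not given in the sources used here; the depth of each library is unknown. Values were divided to sum to 1000000 in every library and are called TPM. The test planned for TPM was run on these rescaled values, not on TPM as RSEM gives it. All 10732 genes reaching 1 TPM in 4 or more libraries entered limma 3.58.1 (R 4.3.3) on log2(TPM + 1), with moderated variances, a mean trend and genotype alone as term, and Benjamini-Hochberg adjustment over them all. This scale understates the fold changes of low genes. The limma step was tested on simulated data. An exact permutation test over 70 assignments, two-sided, could give no p below 0.0286 for a gene on its own.

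The members, the 19 gene lists (219 of 220 entries matched, 3 by another symbol) and the library pairs left out were chosen with earlier results of these data known. Named were the 5 core members of highest and 3 of lowest mean, per direction the 6 members of smallest p, paralogs with their core partners, the stalk genes and Rpsa, per direction 3 members by share of the family, and 2 genes per list. Some genes that this rule selects are not reported here. Rps2, Eif3f, Rpl5, Rpl11, Rpl9, Rps6 and Gas5 were added after values were seen. A near copy is a gene of the table that shares at least 40% of its own 38-base windows with a member, covering at least 10% of the member's. Promoter windows are RefSeq's (GRCm38.p6) and transcripts are GENCODE's. Python 3.11.15, pandas 2.3.3, BLAST 2.17.0 and Biopython 1.88 were used. Alternatives changed the pseudocount, filter, scaling and limma options, and left out libraries.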

Additional observations from a re-analysis of the deposited data

Results flagged for a closer look

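In groups of 4 libraries, 2 values stood far from the other 3: Rpl3l in KO 3, at 0.897 TPM where the other KO libraries were at 0, and Eif1ax in WT 6, at 64.2 TPM where the other WT libraries had 76.9 to 79.1 TPM. These were 2 of 91 groups examined, where a rate of 1 in 20 gives 4.55.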

How the results depend on the processing

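No paired analysis was possible because KO replicates are numbered 1 to 4 and WT replicates 6 to 9, so the groups share no number. Of 570 values for 26 named members under 22 settings, 494 kept their direction, 76 reversed and none passed the threshold; where a cause is not given by construction, the cause was not tested. With pseudocounts of 0.1 and 5, other filters and no mean trend, no direction reversed. Rpl41 turned to -0.039 with median-ratio scaling, -0.090 scaled to the other genes and -0.015 with quality weights. Rpl39 turned to 0.091 with quantile normalization, where the smallest limma adjusted p of a member was 0.446. Scaled to the ribosomal protein sum, the median of all genes was 0.24, that of the other TOP mRNAs 0.090 (-0.23 scaled to the other genes), and Rpl22 (0.11), Rpl22l1 (0.22), Rps27 (0.059), Rpl7 (0.066), Rpl39 (0.11) and Rpl3 (0.022) reversed. With near copies added, chosen after seeing the data, Rpl30 (-0.25), Rpl34 (-0.17), Rpl26 (-0.16) and Rpl22l1 (0.0025) reversed, and 0 members had an unadjusted p under 0.05 with KO above WT.

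Without KO 3 and KO 4, 1 gene of the table passed, 0 members had an unadjusted p under 0.05 with KO above WT (0 by share of the family, against 1.43% of all genes), the other TOP median was 0.015, and Rplp1 (0.0035), Rps4x (0.0077), Rpl22 (0.017), Rps27l (-0.019), Rpl7l1 (-0.041), Rpl29 (0.0037), Rpl22l1 (0.35), Rps27 (0.46), Rpl7 (0.041), Rpl39l (0.054), Rpl39 (0.096), Rpl3 (0.024) and Rplp2 (0.060) reversed. Without WT 6 and WT 9, the share differed by 2.24 points, the median was 0.13 (other TOP 0.039), 0 members reached that p with KO above WT and 1 with KO below (2 by share of the family, against 6.34% of all genes), and Rplp1 (0.29), Rps28 (0.26), Rps4x (0.13), Rpl22 (0.23), Rpl22l1 (0.39), Rps27 (0.86), Rpl7 (0.058), Rpl39 (0.22), Rpl3 (0.097), Rplp0 (0.025), Rplp2 (0.17), Rpsa (0.066), Rpl12 (0.12) and Rps29 (0.15) reversed. Without both pairs, the share differed by 6.08 points, the median was 0.34 (other TOP 0.11), 58 members reached that p with KO above WT and 1 with KO below (10 by share of the family, against 30.6% of all genes), and Rplp1 (0.60), Rps28 (0.43), Rps4x (0.39), Rpl19 (0.19), Rpl22 (0.37), Rps27l (-0.29), Rpl28 (0.0087), Rpl13a (0.051), Rpl29 (0.085), Rpl22l1 (0.74), Rps27 (1.49), Rpl7 (0.26), Rpl39l (0.25), Rpl39 (0.43), Rpl3 (0.32), Rplp0 (0.24), Rplp2 (0.45), Rpsa (0.30), Rpl12 (0.42) and Rps29 (0.43) reversed.

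Leaving out single libraries gave 1 to 3 genes past the threshold (1 without any WT library), 0 to 2 members with an unadjusted p under 0.05 and KO above WT (3.02% to 7.84% of all genes), 0 to 1 with KO below (2.33% to 3.50%), and 0 to 3 by share of the family (2.43% to 8.15%). The share differed by -6.97 points (without WT 8) to -2.28 points (without WT 6). Ranges over these fits were -0.088 to 0.072 for Rpl41, -0.15 to 0.19 for Rpl22l1, -0.67 to 0.35 for Rpl39l, -0.70 to 0.37 for Rps27, -0.25 to 0.020 for Rpl22 and -0.22 to 0.0076 for Rpl39. With 4 libraries in each group and an unknown depth, small differences could not be shown.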

Other observations

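Rpl36al, a paralog of Rpl36a that the symbol rule does not take in, was picked out after its values were seen. It had 1047, 1007, 1100 and 1018 TPM in KO 1 to 4, against 981, 914, 945 and 934 TPM in WT 6 to 9. All KO values lay above all WT values, and WT 6 and WT 9 did not stand out (log2 fold change 0.14, SE 0.11, limma adjusted p = 0.707). Rpl36a itself, an X-linked gene, averaged 2035 ± 447 TPM in KO and 2550 ± 1125 TPM in WT libraries, with WT 6 and WT 9 far above WT 7 and WT 8.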
